A study of Homo sapiens with 20 samples.

Results

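The genes described here are the receptor chains, kinases, transcription factor and feedback genes of the interleukin-6 (IL-6) family pathway: IL6ST, IL6R, OSMR, LIFR, JAK1, JAK2, STAT3, SOCS3, SOCS2 and PIM1. They were chosen by name, as 10 of the 58870 genes in the deposited table, together with the 52 of 54563 Cut&Run peaks that lie in these genes or within 20 kb of them. RNA was sequenced from A375 and 1205Lu, both established human melanoma cell lines, which had received either control siRNAs without a target (si-NT) or FRA1-directed siRNAs (si-FRA1), and each of the 4 groups holds 3 samples. FRA1, encoded by FOSL1, is an AP-1 transcription factor that binds DNA as a dimer with a JUN protein. Cut&Run, in which an antibody directs a nuclease to cut around a bound protein, was done in the same lines with 3 samples for FRA1 and 1 for IgG in each, and the labels give no siRNA for these cells. Both lines are grown in culture without the ligand-producing cells of a tumour, the labels give no added cytokine, and they do not say whether samples of a group are separate cultures, so the p-values measure the spread between these samples, which may be technical.

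IL-6 family cytokines bind a specific receptor chain and then recruit gp130, the shared signaling chain encoded by IL6ST. The receptor complex activates Janus kinases (JAKs), which phosphorylate STAT3, and STAT3 then enters the nucleus and induces genes that include its own inhibitor SOCS3 and the kinase PIM1. Melanoma cells can secrete IL-6 family cytokines themselves, and AP-1 and STAT3 are known to act together at some regulatory regions.

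The FRA1 Cut&Run peaks near these genes are shown first by the DNA that lies under them. The 5 windows below are the centres, with 100 bp on each side, of the named peaks that held the FOS/JUN sequence TGACTCA or TGAGTCA (each the reverse complement of the other), were enriched over IgG in at least 1 line, and had the highest lowest-replicate ratio of FRA1 to IgG, 1 per gene. They were read from the GRCh38 genome, and capitals mark the FOS/JUN sequence.

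JAK1 intron, chr1:64898137-64898337, + strand: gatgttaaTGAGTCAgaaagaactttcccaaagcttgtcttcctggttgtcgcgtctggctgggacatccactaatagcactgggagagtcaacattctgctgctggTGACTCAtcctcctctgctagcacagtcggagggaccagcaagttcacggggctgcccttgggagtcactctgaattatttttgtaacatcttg
OSMR intron, chr5:38872154-38872354, + strand: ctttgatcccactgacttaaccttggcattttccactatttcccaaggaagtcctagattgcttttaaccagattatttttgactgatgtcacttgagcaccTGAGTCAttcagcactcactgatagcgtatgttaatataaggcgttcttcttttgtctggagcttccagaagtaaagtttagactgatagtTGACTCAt
PIM1 upstream, chr6:37169469-37169669, + strand: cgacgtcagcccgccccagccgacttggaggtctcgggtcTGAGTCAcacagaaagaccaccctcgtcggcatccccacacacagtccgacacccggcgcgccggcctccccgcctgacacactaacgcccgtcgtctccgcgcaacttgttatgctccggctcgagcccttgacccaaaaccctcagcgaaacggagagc
SOCS3 downstream, chr17:78342923-78343123, + strand: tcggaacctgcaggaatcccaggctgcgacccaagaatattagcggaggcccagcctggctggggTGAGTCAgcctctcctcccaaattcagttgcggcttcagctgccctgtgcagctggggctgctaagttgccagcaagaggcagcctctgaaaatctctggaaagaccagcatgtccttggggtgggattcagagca
IL6R intron, chr1:154463277-154463477, + strand: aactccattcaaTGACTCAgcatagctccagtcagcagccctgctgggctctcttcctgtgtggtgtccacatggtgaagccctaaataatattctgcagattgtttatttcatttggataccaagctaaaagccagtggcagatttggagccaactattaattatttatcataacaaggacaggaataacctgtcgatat

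The JAK1 window lies in an intron and the OSMR window in another, and each holds the sequence at 2 places. The PIM1 window lies upstream of the gene start, the IL6R window in an intron, and the SOCS3 window lies beyond the 3′ end of the gene, centred 17.1 kb from its start, where it overlaps an exon of an annotated long non-coding RNA. Of the 52 peaks, 19 (36.5%) held the FOS/JUN sequence no further than 100 bp from their centre, against 28.6% of all peaks in the table, and 27 held it anywhere, against 57.7% of all peaks. The STAT sequence TTCNNNGAA, which reads the same on both strands, was as near the centre in 6 of them (11.5%), against 7.11% of all peaks. These shares are descriptions of the letters under the peaks. In the RefSeq promoter table of build GRCh38.p14, 17 windows of 250 bases before and 50 after a start belonged to 9 of the 10 genes, SOCS2 having none. The FOS/JUN sequence was found in 1 of the 17, that of IL6R, and the STAT sequence in 2, both of LIFR, against 4.95% and 7.66% of the 35116 promoter windows in the table.

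The RNA-seq totals lay between 20573412 and 32518903 counts per sample. FOSL1 itself fell from 412.6, 424 and 407.5 to 25.7, 25.7 and 26.0 CPM (counts scaled to a library of 1000000, with TMM factors over the 12 samples) in A375 cells, and from 492, 484 and 478 to 69.4, 70.9 and 65.1 CPM in 1205Lu cells. The log2 changes of FOSL1 were -4.01 and -2.84 (adjusted p = 6e-30 and 1e-22, edgeR), so the labels of the si-FRA1 samples hold and the remaining FOSL1 level was higher in 1205Lu cells. Of 8 melanocyte lineage markers, SOX10, S100B and S100A1 were higher in 1205Lu than in A375 cells with si-NT (means of 914, 427 and 188 against 43.96, 0.992 and 1.203 CPM), MITF was higher in A375 cells (52.2 against 3.55), and the pigment genes PMEL, MLANA, TYR and DCT averaged at most 1.13 CPM in any group. With si-FRA1, SOX10 fell in both lines (log2 changes -0.44 and -0.24, adjusted p = 8.9e-08 and 2.2e-10, edgeR). MITF and PMEL rose in A375 cells (0.29 and 1.19, adjusted p = 2.2e-05 and 0.014, edgeR) and were not called in 1205Lu cells. S100B was called only in 1205Lu cells (-0.07, adjusted p = 0.0042, edgeR). S100A1 rose in A375 and fell in 1205Lu cells (1.105 and -1.40, adjusted p = 0.0014 and 4.4e-17, edgeR). The dedifferentiation markers AXL, NGFR and EGFR changed by -1.91, -0.46 and -0.64 in A375 and by -0.91, 2.105 and 0.13 in 1205Lu cells. Of 5 markers of other cell types, PTPRC, CD3E, EPCAM and PECAM1 averaged at most 0.925 CPM in any group. The fifth, the mesenchymal receptor PDGFRA, averaged 192 and 184 CPM in 1205Lu cells with si-NT and si-FRA1 and 1.479 and 3.26 CPM in A375 cells, where it was called higher (1.12, adjusted p = 0.00046, edgeR). The part of these marker differences in the results was not tested. One A375 si-FRA1 sample is listed with genomic DNA as its molecule, although its title and library name are those of RNA-seq, and its FOSL1 level was that of its group.

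To compare levels between genes, CPM was divided by the length of each gene's exons in kb. In A375 cells with si-NT, OSMR, the receptor chain for oncostatin M, was the highest at 25.2 CPM per kb, followed by IL6ST at 19.1. STAT3 (10.95) and JAK1 (10.7) came next with overlapping samples, and then SOCS3 (5.98) and PIM1 (5.65), which also overlapped. LIFR, the receptor chain for leukemia inhibitory factor, followed at 5.14, and IL6R (2.04), JAK2 (1.95) and SOCS2 (1.81) were the lowest, with IL6R and JAK2 overlapping. In 1205Lu cells with si-NT the order began with IL6ST at 34.0, OSMR at 23.6 and LIFR at 9.75 CPM per kb. It ended with JAK2 at 2.74, PIM1 at 2.49, overlapping JAK2, and SOCS2 at 1.26. With si-FRA1, IL6ST was the highest of the 10 genes in both lines, at 33.2 CPM per kb in A375 and 56.1 in 1205Lu cells, and OSMR came second at 21.03 and 28.5.

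**Figure D1:**
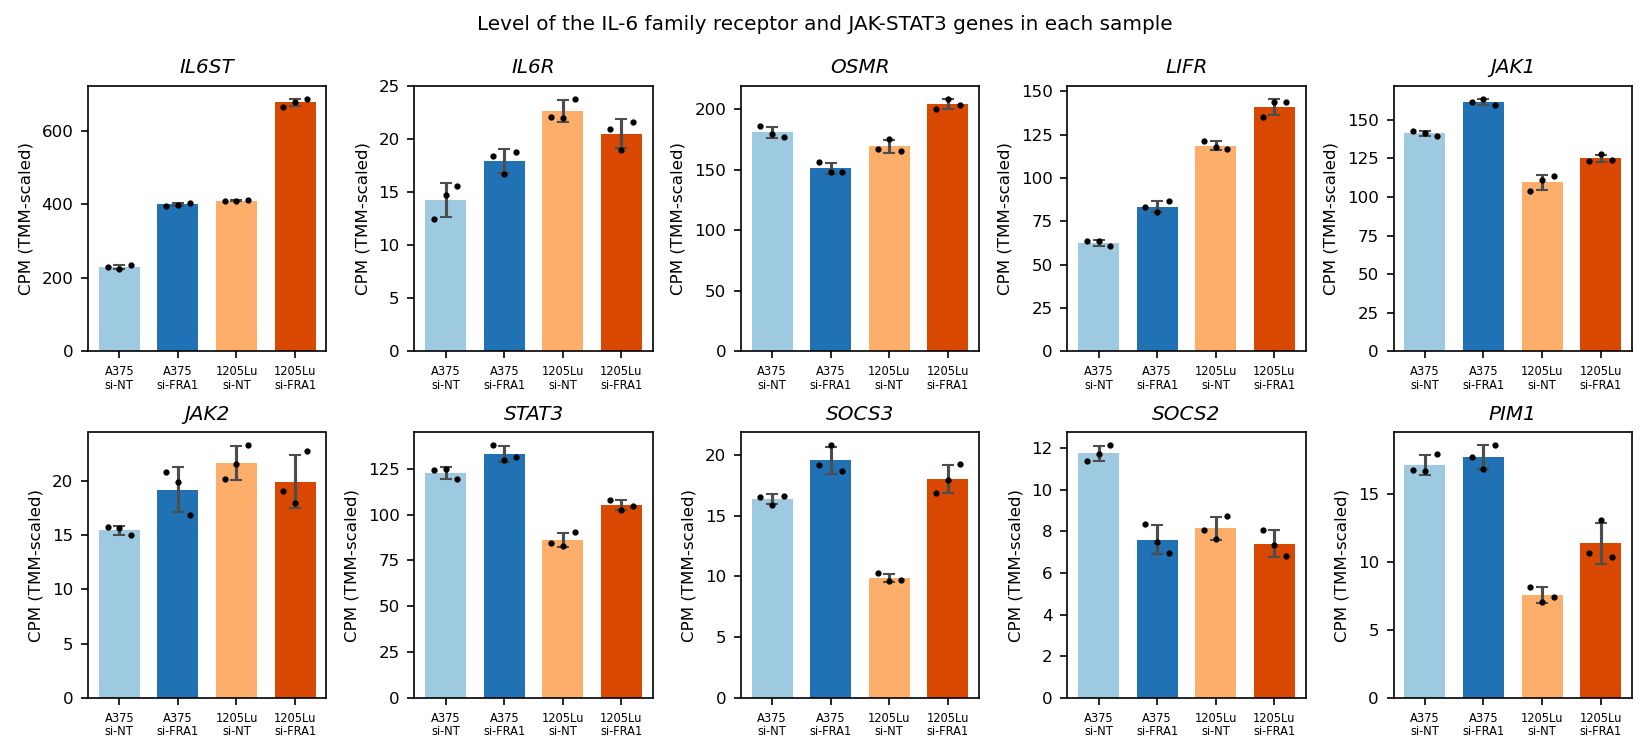
Level of each of the 10 genes in CPM (TMM-scaled, each axis from 0) in the 4 groups, with bars for the mean of 3 samples, error bars for the SD and points for single samples. IL6ST stands at 230.0 and 400.1 CPM in A375 and at 410.4 and 677 CPM in 1205Lu cells with si-NT and si-FRA1, while OSMR is lower with si-FRA1 in A375 and higher in 1205Lu cells.

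With FRA1 silencing IL6ST, the gene of the shared signaling chain, rose 1.73-fold in A375 and 1.63-fold in 1205Lu cells, OSMR moved in opposite directions, and SOCS3 rose more in 1205Lu than in A375 cells, while PIM1 rose in 1205Lu cells. Of the 10 genes, 9 passed an adjusted p of 0.05 in A375 cells (7 higher, 2 lower with si-FRA1) and 7 in 1205Lu cells (all 7 higher). Over all genes tested, 50.8% passed in A375 cells (25.7% higher and 25.1% lower) and 40.5% in 1205Lu cells (20.6% higher and 19.9% lower), so a call by itself is common in these data. The median log2 change of the 10 genes was 0.22 in A375 and 0.24 in 1205Lu cells, against -0.0026 and -0.0048 for all genes tested. No member passed an absolute log2 change of 1 in either line, a limit that together with the adjusted p held for 5.56% and 3.13% of all genes tested. The 5 genes IL6ST, LIFR, JAK1, STAT3 and SOCS3 were called higher in both lines, which held for 10.4% of the genes tested in both.

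IL6ST measured 231, 225 and 235 CPM under control siRNA and 396, 399 and 405 CPM after silencing in A375 cells. In 1205Lu cells it measured 409.6, 410.5 and 411 CPM under control siRNA and 666, 679 and 687 CPM after silencing. The groups did not overlap in either line, and the replicates of a group lay far closer together than the groups did. The log2 changes were 0.79 ± 0.02 (SE, adjusted p = 1.1e-18, edgeR) and 0.71 ± 0.02 (adjusted p = 4.2e-17). Of the genes tested, 11% in A375 and 10.7% in 1205Lu cells changed by more than IL6ST in either direction.

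OSMR, which pairs with gp130 to bind oncostatin M, measured 186, 179.7 and 177 CPM under si-NT, and 156, 148 and 148 CPM under si-FRA1 in A375 cells. In 1205Lu cells it measured 167, 175 and 165 CPM under si-NT, and 200.3, 208.5 and 204 CPM under si-FRA1. It thus fell in one line and rose in the other, without overlap of the groups in either. The log2 changes were -0.26 ± 0.03 (adjusted p = 4.3e-08, edgeR) and 0.26 ± 0.03 (adjusted p = 2.7e-07). OSMR was the only one of the 10 genes called in opposite directions.

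LIFR measured 63.5, 63.4 and 60.7 CPM under si-NT, and 83.4, 80.2 and 86.6 CPM under si-FRA1 in A375 cells, a log2 change of 0.41 ± 0.04 (adjusted p = 8.1e-09, edgeR). In 1205Lu cells it rose from 121.5, 117.7 and 116.5 to 135, 143.5 and 144 CPM, by 0.23 ± 0.03 (adjusted p = 5.5e-06). All si-FRA1 samples were above all si-NT samples of their line. IL6R, the chain that binds IL-6 itself, was the lowest of the 4 receptor chains. It rose in A375 cells from 12.5, 14.8 and 15.6 to 18.4, 16.7 and 18.8 CPM (0.33 ± 0.09, adjusted p = 0.0038, edgeR). In 1205Lu cells IL6R measured 22.1, 22.03 and 23.9 CPM under si-NT, and 20.95, 19.0 and 21.7 CPM under si-FRA1, a log2 change of -0.16 ± 0.07 that did not pass (adjusted p = 0.090, edgeR) although the samples did not overlap.

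The kinases and STAT3 changed by at most 1.24-fold. JAK1, the kinase used by all receptors of the family, rose from 143, 142 and 139.5 to 162, 164 and 159.5 CPM in A375 cells and from 104, 111 and 114 to 124, 128 and 124 CPM in 1205Lu cells. The log2 changes were 0.19 ± 0.03 and 0.18 ± 0.04 (adjusted p = 2.7e-06 and 0.00034, edgeR), and in neither line did the groups overlap. JAK2, a second kinase bound to gp130, measured 15.7, 15.7 and 14.96 CPM under si-NT, and 20.8, 19.9 and 16.9 CPM under si-FRA1 in A375 cells (0.31 ± 0.08, adjusted p = 0.0035, edgeR). In 1205Lu cells it measured 20.1, 21.6 and 23.3 against 19.1, 18.0 and 22.7 CPM, with overlapping groups and no call (-0.14 ± 0.09, adjusted p = 0.23, edgeR). Without si-FRA1 replicate 3, the highest JAK2 sample of its group, the 1205Lu value was -0.23 (adjusted p = 0.045, edgeR). STAT3, the transcription factor at the end of the cascade, rose from 124, 125 and 119 to 138, 129.9 and 131 CPM in A375 cells (0.11 ± 0.03, adjusted p = 0.0055, edgeR). Its rise in 1205Lu cells was from 84.6, 83.1 and 90.8 to 108, 102.5 and 105 CPM (0.27 ± 0.04, adjusted p = 1.1e-05, edgeR).

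SOCS3, an inhibitor that binds gp130 and the JAKs and is itself induced by STAT3, measured 16.6, 15.9 and 16.6 CPM under si-NT, and 19.2, 20.8 and 18.7 CPM under si-FRA1 in A375 cells. In 1205Lu cells it rose from 10.3, 9.66 and 9.66 to 16.9, 18.0 and 19.2 CPM. The groups did not overlap in either line, and the log2 changes were 0.25 ± 0.08 and 0.85 ± 0.09 (adjusted p = 0.0079 and 2.1e-07, edgeR). Of all genes tested in 1205Lu cells, 6.78% changed by more than SOCS3 in either direction.

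SOCS2, an inhibitor best known for growth hormone signaling, fell in A375 cells from 11.4, 11.7 and 12.1 to 8.36, 7.47 and 6.96 CPM (-0.63 ± 0.11, adjusted p = 2.8e-05, edgeR). In 1205Lu cells SOCS2 measured 8.05, 7.66 and 8.72 CPM under si-NT, and 8.09, 7.37 and 6.79 CPM under si-FRA1, which overlapped (-0.15 ± 0.13, adjusted p = 0.38, edgeR). PIM1, a survival kinase that STAT3 induces, behaved the other way. It measured 16.7, 16.7 and 17.9 against 17.7, 16.8 and 18.6 CPM in A375 cells, with overlap and no call (0.04 ± 0.08, adjusted p = 0.68, edgeR). In 1205Lu cells PIM1 rose from 8.18, 7.03 and 7.44 to 10.6, 13.1 and 10.4 CPM (0.57 ± 0.12, adjusted p = 0.00092, edgeR), with every si-FRA1 sample above every si-NT sample.

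**Figure D2:**
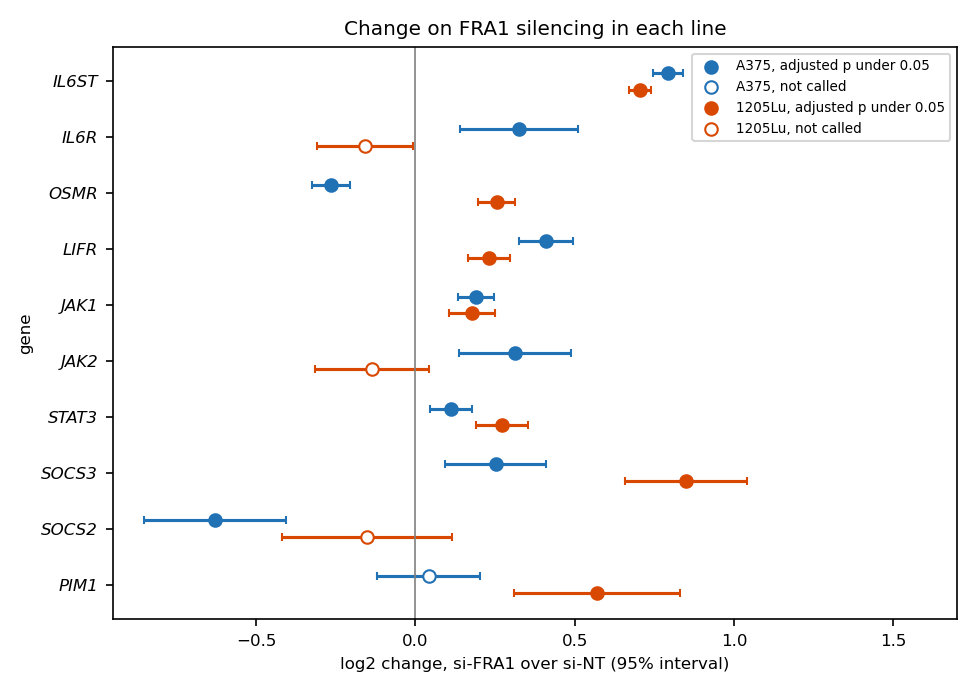
Log2 change with si-FRA1 over si-NT (x axis) for each gene (y axis) in A375 and 1205Lu cells, as the estimate of edgeR from 3 against 3 samples with its 95% interval. IL6ST and JAK1 lie at similar values in both lines, at 0.79 and 0.71 and at 0.19 and 0.18, whereas OSMR lies on opposite sides of 0 and SOCS2 and PIM1 are called in 1 line each.

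The change on silencing was then compared between the lines by the interaction term of one fit over the 12 samples, given as the A375 change minus the 1205Lu change. It passed for 9 of the 10 genes, 4 with the higher and 5 with the lower value in A375 cells, against 31.9% of all genes tested (15.3% and 16.6%). OSMR had the smallest p of the 10 (-0.53 ± 0.04, adjusted p = 2.7e-10, edgeR), and SOCS3 (-0.61 ± 0.12, adjusted p = 0.00018), PIM1 (-0.54 ± 0.14, adjusted p = 0.0043) and SOCS2 (-0.49 ± 0.16, adjusted p = 0.024) also had the lower value in A375 cells. IL6R (0.47 ± 0.12, adjusted p = 0.0031, edgeR), JAK2 (0.44 ± 0.13, adjusted p = 0.011) and LIFR (0.17 ± 0.05, adjusted p = 0.015) had the higher value in A375 cells. STAT3 differed by -0.17 ± 0.05 (adjusted p = 0.013, edgeR). The IL6ST difference was small, at 0.08 ± 0.03 (adjusted p = 0.049, edgeR), and did not pass in 13 of 17 alternative fits, with values of 0.05 to 0.08 when single samples were left out. For JAK1 the difference was 0.00 with a 95% interval of -0.10 to 0.10, and its sign changed in 10 of 17 alternative fits. The STAT3 difference did not pass with upper-quartile scaling (-0.12, adjusted p = 0.082, edgeR) and that of JAK2 did not without A375 si-FRA1 replicate 1 (0.36, adjusted p = 0.052). The LIFR difference, at 0.13 to 0.14, did not pass without 1205Lu si-NT replicate 1, 1205Lu si-FRA1 replicate 1, A375 si-NT replicate 3 or A375 si-FRA1 replicate 3 (adjusted p = 0.059 to 0.069, edgeR), nor with no low-count filter. That of SOCS2, at -0.46 to -0.43, did not pass without 1205Lu si-NT replicate 2, 1205Lu si-FRA1 replicate 1 or A375 si-FRA1 replicate 3 (adjusted p = 0.051 to 0.068, edgeR). For IL6ST 11 of the 12 fits that left out a sample lost the call, the exception being A375 si-NT replicate 3.

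With si-NT, 9 of the 10 genes differed between the lines, against 78.0% of all genes tested. The receptor chains were lower in A375 cells and the downstream genes higher, apart from OSMR and JAK2. IL6ST was 0.91 lower on the log2 scale in A375 cells (-0.91 ± 0.02, adjusted p = 5.5e-18, edgeR), LIFR was at -0.997 ± 0.04 (adjusted p = 1.6e-15) and IL6R at -0.74 ± 0.09 (adjusted p = 2.2e-07). JAK2 was also lower in A375 cells, at -0.56 ± 0.08 (adjusted p = 2.8e-06, edgeR), which makes 4 of the 10 genes lower there against 38.8% of all genes tested. The 5 genes higher in A375 cells, against 39.2% of all genes tested, were PIM1 (1.103 ± 0.10, adjusted p = 5.6e-09, edgeR), SOCS3 (0.65 ± 0.09), SOCS2 (0.46 ± 0.11), STAT3 (0.44 ± 0.04) and JAK1 (0.30 ± 0.03). PIM1 was the only one past an absolute log2 change of 1. OSMR did not differ beyond its error in this fit (0.02 ± 0.03, adjusted p = 0.49, edgeR). In CPM scaled over the 12 samples the OSMR samples of the lines did not overlap, and in a fit of all 12 samples the difference was 0.10 (adjusted p = 0.0061, edgeR), so the call for this small difference was not stable. It was 0.16 with no low-count filter (adjusted p = 1.5e-05, edgeR), -0.000853 with at least 10 counts required in every sample, and 0.078 without A375 si-NT replicate 3 (adjusted p = 0.046, edgeR).

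The other genes of the pathway were taken from a list of 60 names, of which 53 were tested in A375 and 50 in 1205Lu cells. In A375 cells 22 were higher and 12 lower with si-FRA1 (median log2 change 0.17), against 25.7% and 25.1% of all genes tested. In 1205Lu cells 25 were higher and 4 lower (median 0.21), against 20.6% and 19.9%. In both lines 15 were higher and 1 was lower, and 5 were called in opposite directions, against 10.4%, 10.8% and 8.86% of the genes tested in both. Among the ligand genes, OSM, CTF1 and IL27 were not tested in either line. IL6 rose in A375 cells from 1.27, 0.475 and 1.12 to 2.33, 2.21 and 2.27 CPM (1.26 ± 0.31, adjusted p = 0.0015, edgeR), from counts of 12 to 76 per sample, and was too low to be tested in 1205Lu cells. IL11, a second gp130 ligand, fell in A375 cells from 9.002, 10.3 and 11.97 to 4.78, 5.34 and 5.95 CPM (-0.97 ± 0.13, adjusted p = 1.1e-06, edgeR), and the groups did not overlap. In 1205Lu cells IL11 averaged 8.20 and 7.58 CPM and was not called (-0.13 ± 0.12, adjusted p = 0.44, edgeR).

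LIF, the ligand of LIFR, was the most abundant ligand in CPM and differed widely between the lines. It measured 199, 202 and 195 CPM under si-NT, and 151, 148 and 154.5 CPM under si-FRA1 in 1205Lu cells (-0.41 ± 0.03, adjusted p = 2e-10, edgeR). In A375 cells LIF averaged 15.1 and 14.9 CPM and was not called (-0.03 ± 0.09, adjusted p = 0.82, edgeR). EBI3, a subunit of IL-27, rose in A375 cells from a mean of 1.85 to 3.71 CPM (0.997 ± 0.22, adjusted p = 0.00062, edgeR). CNTF and CLCF1, further ligands of the family, were tested in both lines and called in neither. Among the other receptor genes, ADAM17, the protease that sheds IL6R from the cell surface, rose in both lines (0.50 ± 0.04 and 0.39 ± 0.05, adjusted p = 9.6e-11 and 3.5e-06, edgeR). IL27RA rose in 1205Lu cells (0.63 ± 0.09, adjusted p = 4.4e-06, edgeR), where IL31RA fell (-0.49 ± 0.18, adjusted p = 0.032), and IL11RA was called in neither line. Neither IL27RA (0.14 ± 0.11, adjusted p = 0.30, edgeR) nor IL31RA (0.20 ± 0.19, adjusted p = 0.41) was called in A375 cells.

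Of 22 genes listed as STAT3 targets, 20 were tested in each line. In 1205Lu cells 14 were higher and 1 lower with si-FRA1, against 20.6% and 19.9% of all genes tested, with a median log2 change of 0.34. In A375 cells 10 were higher and 5 lower, against 25.7% and 25.1%, with a median of 0.03. The interaction term passed for 13 of the 20, against 31.9% of all genes tested, and 12 of the 13 had the lower value in A375 cells, a direction called for 16.6% of all genes. The list holds genes that many other signals also control, AP-1 among them. A2M, a protease inhibitor, rose in A375 cells from 2.04, 2.18 and 1.04 to 5.42, 5.26 and 5.79 CPM (1.64 ± 0.21, adjusted p = 4.8e-07, edgeR). In 1205Lu cells it rose from 12.6, 13.3 and 13.0 to 58.0, 50.8 and 54.4 CPM (2.06 ± 0.07, adjusted p = 2.8e-15, edgeR). A2M thus had non-overlapping groups in both lines, at levels several-fold apart between the lines.

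JUNB, itself an AP-1 subunit, rose from a mean of 30.6 to 60.0 CPM in A375 and from 26.3 to 53.9 CPM in 1205Lu cells, by 0.97 ± 0.05 and 1.01 ± 0.06 (adjusted p = 1.1e-13 and 6.5e-11, edgeR). SERPINA3, an acute-phase protease inhibitor, rose from 1.13 to 2.28 CPM in A375 cells (1.01 ± 0.28, adjusted p = 0.0037, edgeR) and from 257 to 431 CPM in 1205Lu cells (0.73 ± 0.02, adjusted p = 2.3e-16). IRF1, a transcription factor of the interferon response, measured 9.95, 9.02 and 8.45 against 13.0, 13.6 and 11.7 CPM in A375 cells and 8.85, 8.14 and 8.31 against 26.0, 25.1 and 25.6 CPM in 1205Lu cells. Its log2 changes were 0.48 ± 0.10 and 1.58 ± 0.08 (adjusted p = 0.00044 and 4e-12, edgeR). STAT4, at means of 0.307 and 0.793 CPM, was called higher in A375 cells (1.35 ± 0.46, adjusted p = 0.018, edgeR) from counts of 5 to 28 per sample.

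The 4 STAT3 targets called in opposite directions were MYC, CEBPD, VEGFA and HIF1A, which are named here after their values were seen. MYC, a growth-promoting transcription factor, fell in A375 cells from 36.1, 36.6 and 37.6 to 19.8, 21.8 and 18.7 CPM (-0.88 ± 0.06, adjusted p = 2.9e-11, edgeR) and rose in 1205Lu cells from 123, 117.7 and 119.5 to 138, 151.5 and 141 CPM (0.24 ± 0.03, adjusted p = 7.8e-06). CEBPD, a transcription factor of the acute phase, likewise fell by 0.90 in A375 and rose by 0.21 in 1205Lu cells (adjusted p = 8.3e-10 and 0.0055, edgeR). For VEGFA, the vascular growth factor, the changes were -0.16 and 0.22, and for HIF1A, the hypoxia factor, they were 0.07 and -0.15.

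**Figure D3:**
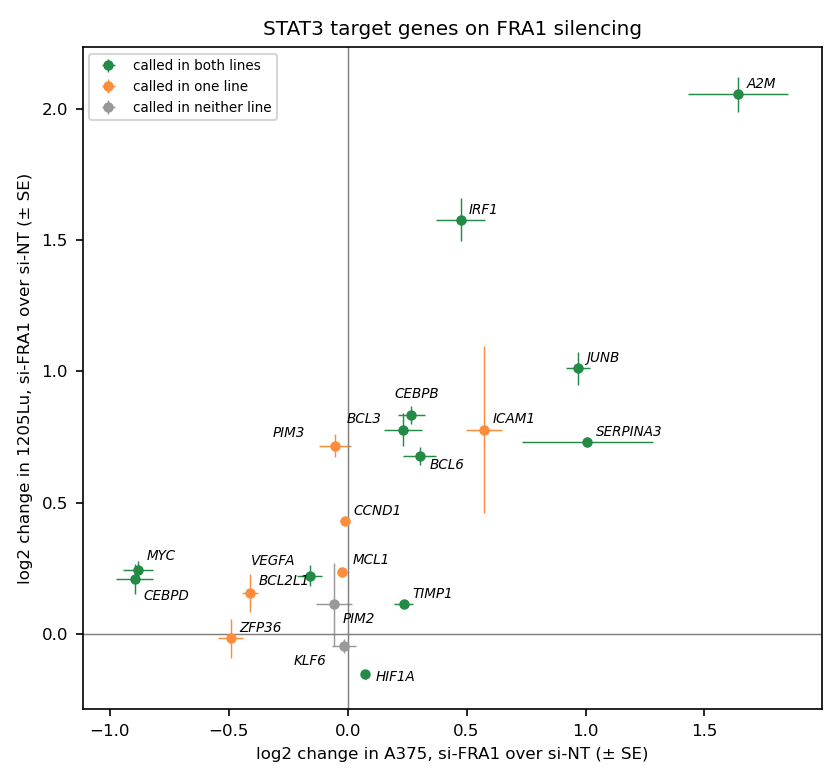
Log2 change with si-FRA1 over si-NT in A375 (x axis) and in 1205Lu cells (y axis) for the 20 STAT3 target genes tested in both lines, with the SE of each as bars and colour for the number of lines in which a gene was called. A2M lies furthest out at 1.64 and 2.06, 8 genes were called higher in both lines, and MYC and CEBPD lie in the upper left, lower in A375 and higher in 1205Lu cells.

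Each of the 10 genes had at least 1 peak of the consensus table in it or within 20 kb, which held for 79.3% of all protein-coding genes in the count table, and 18 of the 52 peaks were enriched over IgG in neither line. JAK1 (chr1:64833223-65067754) had 6, IL6R (chr1:154405193-154469450) 13, LIFR (chr5:38474668-38608354) 10, OSMR (chr5:38845858-38945596) 5 and IL6ST (chr5:55935095-55995022) 3. STAT3 (chr17:42313324-42388540) had 4, SOCS3 (chr17:78356778-78360077) 5, and PIM1 (chr6:37170152-37175428), JAK2 (chr9:4984390-5129948) and SOCS2 (chr12:93569814-93583487) had 2 each. Gene positions are those of GENCODE v44 on GRCh38. A promoter peak here means one within 3 kb of any annotated transcript start of the gene, internal starts included. By that rule 18 peaks were promoter peaks, 20 intronic, 1 exonic and 13 in the flanks, and 10 of the 18 promoter peaks were centred within 2 kb of the outermost start. Of the 52, 3 also lay within 3 kb of a start of another protein-coding gene (SHE, EGFLAM and PGS1).

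A peak was counted as enriched where no FRA1 sample of the line fell below 10 counts or below 4 times its IgG value raised by 1, which is a description with no test since each line has 1 IgG sample. In A375 cells 34 of the 52 peaks were enriched (65.4%), against 57.4% of all peaks. In 1205Lu cells 2 were (3.85%), against 7.09% of all peaks, and both were also enriched in A375 cells, against 4.5% of all peaks. The libraries differed in depth, and their totals in peaks were 3354095 to 5316527 counts for FRA1 in A375 and 583750 to 897407 in 1205Lu cells, and 383994 and 314569 for IgG. The libraries of each line were also scaled to the same total in peaks. Then 1 of the 52 peaks passed in A375, the JAK1 intron peak, and 0 in 1205Lu cells, against 1.75% and 2.85% of all peaks. This scaling makes the FRA1 and IgG totals equal in advance, so it cannot show what part depth has in the enrichment. The counts of enriched peaks given here are those of the unscaled libraries. In 1205Lu cells the lowest FRA1 count was at or below the IgG count in 36 of the 52 peaks, and in A375 cells in 0. The shares over all peaks are not given here, but the lines differed likewise over the whole peak set. There the median counts were 6, 5 and 5 for FRA1 and 5 for IgG in 1205Lu cells, and 30, 47 and 38 against 6 in A375 cells.

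Of the 34 peaks enriched in A375 cells 15 held the FOS/JUN sequence near the centre, against 34.0% of all peaks enriched there, and so did both peaks enriched in 1205Lu cells, against 30.4%. A promoter peak was enriched in A375 cells for 7 of the 10 genes (IL6ST, IL6R, OSMR, LIFR, JAK2, STAT3 and PIM1), against 27.7% of all protein-coding genes in the table, and in 1205Lu cells for 0 of 10, against 3.73%. Those shares are over 19759 genes, whether expressed in these cells or not. IL6ST and LIFR were counted only through internal starts, with peaks 16.7 and 12.9 kb into the gene, while the peaks at their gene starts were not enriched.

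**Figure D4:**
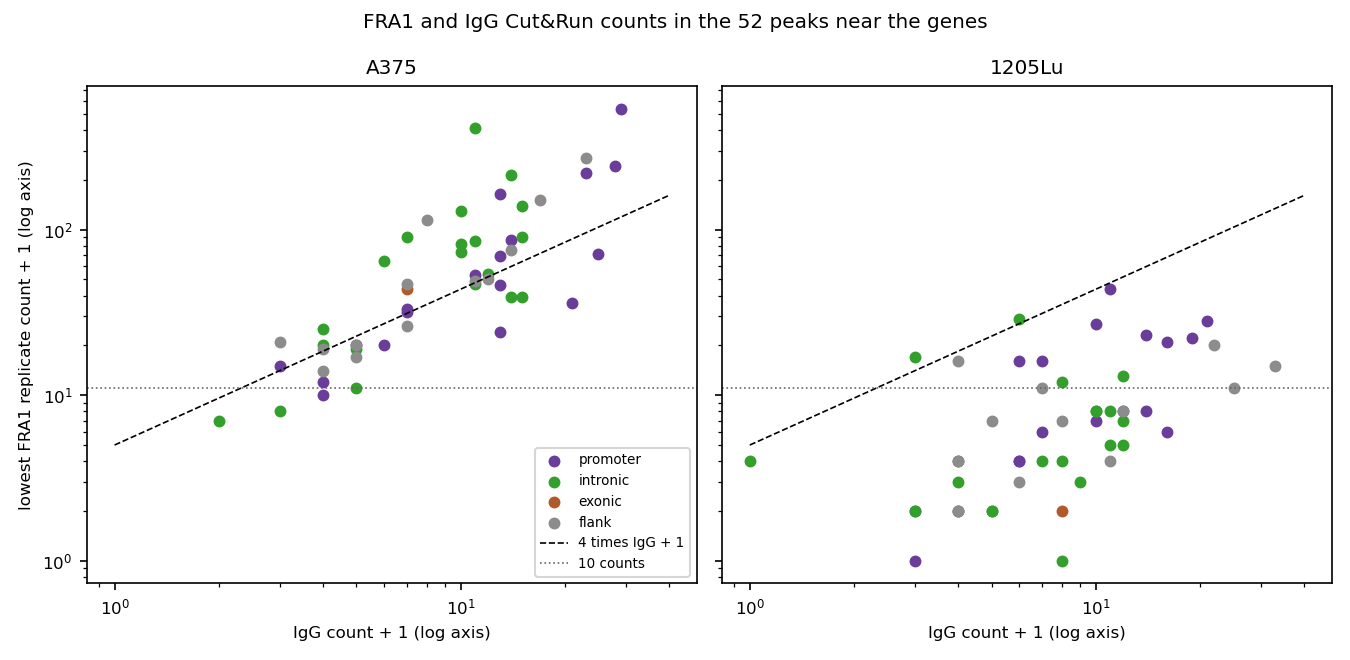
Lowest FRA1 replicate count plus 1 (y axis, log scale) against the IgG count plus 1 (x axis, log scale) for the 52 peaks in each line, coloured by their place in the gene, with lines at 4 times IgG plus 1 and at 10 counts. In A375 cells 34 peaks lie on or above both lines, and in 1205Lu cells 2 do.

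The strongest peak by its ratio to IgG was the JAK1 intron peak at chr1:64897694-64898780, whose centre is the first sequence printed above. It had 409, 634 and 500 FRA1 counts and 10 IgG counts in A375 cells, and 16, 48 and 38 FRA1 counts and 2 IgG counts in 1205Lu cells, and it was enriched in both. The other peak enriched in both lines lay in an intron of IL6R at chr1:154423369-154423958, with 129, 186 and 149 counts against 9 for IgG in A375 cells and 28, 61 and 49 against 5 in 1205Lu cells. It held the FOS/JUN sequence within 100 bp of its centre.

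IL6R had the most peaks of the 10 genes, 10 of them enriched in A375 cells. Its highest, at chr1:154431175-154433642 beside an internal transcript start, had 537, 840 and 677 counts against 28 for IgG in A375 cells but 27, 33 and 29 against 20 in 1205Lu cells. The peak at the IL6R gene start, chr1:154405330-154406719, had 220, 348 and 248 counts against 22 in A375 cells and 43, 75 and 49 against 10 in 1205Lu cells, just under the limit of 4 in the latter. Another IL6R promoter peak, centred 48.6 kb into the gene, was not enriched in either line, and the highest peak away from the promoters, chr1:154462883-154463871 with the IL6R window printed above, was enriched in A375 cells with 137, 226 and 179 counts against 14.

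Near OSMR the highest peak was intronic, at chr5:38871690-38872819, with 213, 349 and 292 counts against 13 for IgG in A375 cells and 11, 12 and 11 against 7 in 1205Lu cells. The OSMR promoter peak at chr5:38845915-38846415 was much lower, with 32, 43 and 33 counts against 6 in A375 cells and 15, 7 and 7 against 11 in 1205Lu cells. At LIFR, the promoter peak 12.9 kb into the gene (chr5:38595220-38595699) had 52, 82 and 65 counts against 10 in A375 cells, the one at the gene start (chr5:38607647-38608083) was not enriched with 19, 27 and 20 against 5, and the highest intronic peak (chr5:38598542-38599553) had 81, 138 and 123 against 9. None of these was enriched in 1205Lu cells.

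IL6ST, the gene that rose most in A375 cells among the 10, had FRA1 counts at its start that did not reach the limit over IgG. Its promoter peak at chr5:55994653-55995556 had 70, 93 and 82 counts against 24 for IgG in A375 cells and 16, 15 and 6 against 9 in 1205Lu cells, which was not enrichment in either. Over all peaks the medians in A375 cells were 30, 47 and 38 for FRA1 and 6 for IgG, so both were above the median at this peak. A smaller promoter peak 16.7 kb into the gene passed in A375 cells with 14, 24 and 21 counts against 2. The highest peak lay 17.1 kb upstream of the gene start at chr5:56011670-56012672, with 114, 203 and 145 counts against 7 in A375 cells and 8, 8 and 6 against 7 in 1205Lu cells. This upstream peak held 1 FOS/JUN sequence, further than 100 bp from its centre, and none of the 3 IL6ST peaks held one nearer.

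The JAK2 promoter peak at chr9:4983873-4985370 had 242, 361 and 304 counts against 27 in A375 cells and 26, 32 and 35 against 9 in 1205Lu cells, and its intronic peak 111.6 kb into the gene had 19, 22 and 21 against 3 in A375 cells. Both were enriched in A375 cells only by the rule used here. The JAK1 promoter peak, at an internal start 101.4 kb into the gene, was not enriched, with 23, 39 and 35 counts against 12 in A375 cells.

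All 4 STAT3 peaks were near annotated starts. The one at the gene start, chr17:42388379-42388944, had 68, 79 and 77 counts against 12 for IgG in A375 cells and 24, 22 and 24 against 13 in 1205Lu cells. The internal ones at chr17:42325189-42326433 (85, 175 and 128 against 13) and chr17:42329134-42329894 (36, 39 and 31 against 6) were enriched in A375 cells. The fourth, chr17:42319702-42320253, had 12, 9 and 12 counts against 3 in A375 cells and 15, 21 and 26 against 5 in 1205Lu cells, and was enriched in neither.

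The SOCS3 promoter peak at chr17:78359776-78360950 held the STAT sequence near its centre. It had 45, 75 and 49 FRA1 counts against 12 for IgG in A375 cells and 20, 27 and 23 against 15 in 1205Lu cells, under the limit in both lines. The highest SOCS3 peak was downstream of the gene at chr17:78342039-78344008, with 270, 377 and 313 counts against 22 in A375 cells and 16, 14 and 17 against 32 in 1205Lu cells. Neither SOCS2 peak was enriched in either line, and SOCS2 was the only one of the 10 genes without an enriched peak in A375 cells. Its promoter peak had 35, 76 and 58 counts against 20 in A375 cells and also held the STAT sequence near its centre. The PIM1 promoter peak at chr6:37168990-37170149, source of the PIM1 window above, had 164, 243 and 204 counts against 12 in A375 cells and 21, 48 and 31 against 18 in 1205Lu cells, and the second PIM1 promoter peak, 1.8 kb into the gene, had 12, 27 and 11 against 3 in A375 cells and was not enriched.

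FRA1 counts were also compared between the lines by edgeR, with 1205Lu replicates 2 and 3 counted as 1 sample since their counts agreed within sampling noise over well-covered peaks. All 52 peaks were tested. Of these, 16 were higher in A375 cells, against 25.9% of all peaks tested, and 8 were higher in 1205Lu cells, against 22.5%. With DESeq2 the calls were 10 and 8, and the share of all calls that were higher in A375 cells moved from 53.6% to 42.7%, a change of test and scaling together. Scaling by total counts alone gave 17 and 8 calls (57.3%), so the balance between the directions was not stable. Leaving out 1205Lu replicate 1 left the mean of replicates 2 and 3 as the only 1205Lu sample. For that fit only log2 values are given. All 16 peaks higher in A375 cells were enriched over IgG there. The call and the enrichment use the same FRA1 counts, so the one is no separate support for the other. Of the 8 higher in 1205Lu cells 7 were not enriched over IgG in 1205Lu cells, so for those the comparison sets low counts beside the scaled background of the library.

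The peaks that were higher in A375 cells included the highest ones of 6 genes outside their promoters. The log2 differences were 1.92 ± 0.28 for the OSMR intron peak (adjusted p = 2e-07, edgeR), 1.88 ± 0.32 for the IL6R intron peak (adjusted p = 4.3e-06) and 1.42 ± 0.23 for the JAK1 intron peak (adjusted p = 2.6e-06). They were 1.62 ± 0.26 for the SOCS3 downstream peak (adjusted p = 1.1e-06, edgeR), 1.64 ± 0.33 for the IL6ST upstream peak (adjusted p = 5.9e-05) and 1.12 ± 0.34 for the LIFR intron peak (adjusted p = 0.0054). The IL6R peak at the internal start 27.2 kb into the gene differed by 1.85 ± 0.22 (adjusted p = 3.5e-09, edgeR), the LIFR promoter peak 12.9 kb into the gene by 1.17 ± 0.43 (adjusted p = 0.022) and the JAK2 promoter peak by 0.63 ± 0.21 (adjusted p = 0.014). Without 1205Lu replicate 1, with 1 averaged 1205Lu sample left, the LIFR intron, LIFR promoter and JAK2 promoter peaks were at 1.04, 1.25 and 0.36. DESeq2 called none of these 3. The JAK2 promoter call was also lost without A375 replicate 3 (0.59, adjusted p = 0.060, edgeR).

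The STAT3 peaks split. The internal one at 62.7 kb was higher in A375 cells (1.71 ± 0.37, adjusted p = 0.00015, edgeR), whereas the one at the gene start (-1.03 ± 0.27, adjusted p = 0.0013), the one at 59.0 kb (-1.84 ± 0.32, adjusted p = 5.2e-06) and the one at 68.6 kb (-3.50 ± 0.40, adjusted p = 1.1e-09) were higher in 1205Lu cells. The SOCS3 promoter peak (-1.38 ± 0.27, adjusted p = 4.3e-05, edgeR) and the OSMR promoter peak (-0.99 ± 0.38, adjusted p = 0.030) were also relatively higher in 1205Lu cells. For OSMR the call was lost without 1205Lu replicate 3 (-0.96, adjusted p = 0.050, edgeR) and with all 6 libraries kept separate (-0.79, adjusted p = 0.054). Without 1205Lu replicate 1, with 1 averaged 1205Lu sample left, the OSMR value was -0.43. The promoter peaks at the starts of IL6ST (-0.05 ± 0.31), SOCS2 (0.01 ± 0.37) and PIM1 (0.04 ± 0.22) were not called, and the sign of each changed with the setting. The IL6R peak at the gene start was at -0.33 ± 0.19 (adjusted p = 0.15, edgeR) and passed with all 6 libraries (-0.40, adjusted p = 0.037). Without 1205Lu replicate 1 it was at -0.66.

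**Figure D5:**
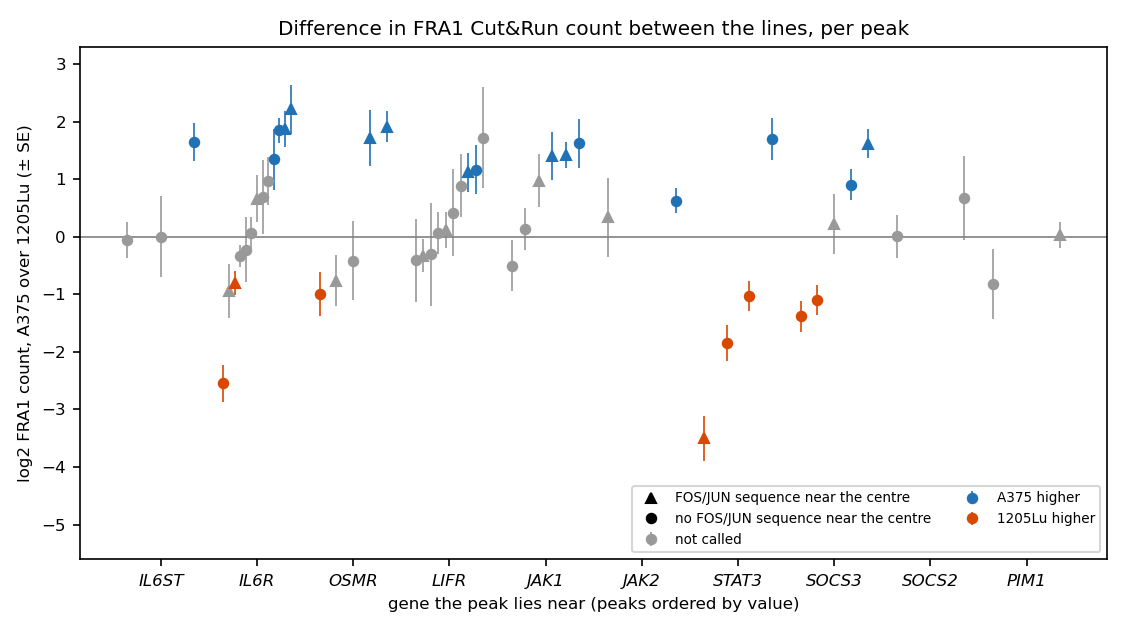
Log2 difference in FRA1 count, A375 over 1205Lu (y axis), with its SE, for each of the 52 peaks grouped by gene (x axis), with triangles for peaks that hold the FOS/JUN sequence within 100 bp of the centre and colour for the call by edgeR. The 16 peaks called higher in A375 cells lie at 0.63 or above, and the lowest value is that of a STAT3 peak at -3.50.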

How the data were processed

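The deposited RNA-seq values are expected counts per gene, which the authors obtained with STAR 2.7.7a and RSEM 1.3.0 on GRCh38 with GENCODE v30, and these were rounded to whole numbers. The Cut&Run table holds the authors' counts of reads per consensus peak, from Bowtie2 2.4.1 and MACS2 2.1.1.20160309 on GRCh38. The tools are credited to the study's methods and the submitters' processing notes, and how reads were assigned to consensus peaks is not given in the sources used here. Samples were grouped by their GEO titles and treatment labels, and all sample columns were used.

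Each RNA comparison was fitted over all genes with edgeR 4.0.16 in R 4.3.3 (TMM, filterByExpr, quasi-likelihood test, adjusted p-values by Benjamini-Hochberg over all genes tested, call under 0.05). The SE was taken as the absolute log2 change divided by the square root of the F statistic of that test. Intervals are 95% intervals from this SE. The alternatives were DESeq2 1.42.0, upper-quartile scaling, other low-count filters, a fold limit, a replicate block, 1 fit of all samples and leaving out each sample. FRA1 peak counts were fitted in the same way. In 1205Lu cells, replicates 2 and 3 had a chi-square per degree of freedom of 1.00 (p = 0.44) over 6871 peaks with 60 or more summed counts, against 1.50 to 1.59 for the other pairs, and entered as their mean. Over 18088 peaks with 20 or more summed counts, the limit tried first, the value was 1.06 (chi-square p = 1.1e-08). Neither limit had been set in advance, the averaged form was chosen after both were seen, and the fit with the libraries kept separate is an alternative. Peak positions were placed in genes with GENCODE v44 and the GRCh38 genome.

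On simulated counts with 200 genes changed 2-fold or 4-fold, the RNA test recovered 200 of 200 in A375 (13 false calls among 16839 genes). In 1205Lu cells it recovered 198 of 200 (14 false calls among 17113). The simulation used a common spread for all genes. The changes of the 10 genes on silencing were all under 2-fold, so the recovery of changes of their size was not tested. For the Cut&Run comparison 64 of 90 4-fold and 14 of 98 2-fold changes were recovered, with 4 false calls among 52859 peaks, so smaller differences between the lines can be missed. The 10 genes, the lists and the tests were chosen with earlier results of these data known. Named were the 10 genes, FOSL1, every ligand or other receptor chain tested, any listed gene past an absolute log2 change of 1 in a line or of 0.5 in the same direction in both, and, of the peaks, each promoter peak and the highest other peak per gene. Up to 5 peak windows were printed. The values of 1 gene that the rule names are not reported here.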

Additional observations from a re-analysis of the deposited data

Results flagged for a closer look

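The change on silencing differed between the lines for 9 of the 10 genes by the interaction term (edgeR, adjusted p under 0.05), against 31.9% of all genes tested. Given as the A375 change minus the 1205Lu change on the log2 scale, the values were IL6ST 0.076, IL6R 0.47, OSMR -0.53, LIFR 0.17, JAK2 0.44, STAT3 -0.17, SOCS3 -0.61, SOCS2 -0.49 and PIM1 -0.54. The IL6ST call was lost in 13 of 17 alternative fits, that of LIFR in 5, of SOCS2 in 3, and of JAK2 and STAT3 in 1 each. Among the other named genes the change differed for IL11 at -0.85 (adjusted p = 0.00069, edgeR), LIF at 0.37 (adjusted p = 0.00021), IL27RA at -0.50 (adjusted p = 0.0090), IRF1 at -1.11 (adjusted p = 2.2e-07) and FOSL1 itself at -1.19 (adjusted p = 1.2e-16). The same held for MYC at -1.13 (adjusted p = 9.8e-13, edgeR), CEBPD at -1.12 (adjusted p = 5.6e-10), VEGFA at -0.39 (adjusted p = 0.00013) and HIF1A at 0.22 (adjusted p = 7.6e-08), which were named after their values were seen. The silencing of FOSL1 was thus deeper in A375 cells, and its part in the other differences was not tested.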

How the results depend on the processing

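The number of the 10 genes called was unchanged in A375 cells (9) and lay between 7 and 8 in 1205Lu cells under all alternatives other than the fold limit. An absolute log2 change over 1 as a further limit left 0, 0 and 0 of the 10 for silencing in A375, in 1205Lu and for the interaction, and 1 for the lines with si-NT. The interaction count ranged from 6 to 9 (6 to 8 with single samples left out) and that for the lines with si-NT from 9 to 10. The JAK1 interaction, near 0, became -0.020 with no low-count filter and ranged from -0.032 to 0.028 when single samples were left out. OSMR between the lines with si-NT was -0.000853 with at least 10 counts in every sample, 0.16 with no low-count filter and 0.02 to 0.08 with single samples left out.

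Sample numbers did not mark pairs (correlations of same-numbered samples from -0.05 to 0.05). With a replicate block 9, 7, 8 and 9 of the 10 genes were called for A375, 1205Lu, the interaction and the lines with si-NT. The call lost was IL6ST in the interaction. The block for peaks was fitted with all 6 libraries kept separate, and 24 of the 52 peaks were called (17 higher in A375, 7 in 1205Lu cells). Without the block those 6 libraries gave 18 and 8. The OSMR start peak was called neither with the block (-0.76, adjusted p = 0.092, edgeR) nor without it (-0.79, adjusted p = 0.054).

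Of the 52 peaks, those enriched in A375 cells numbered 14 at 8 times IgG (26.7% of all peaks) and 1 with scaled libraries (1.75%). In 1205Lu cells they numbered 7 at 2 times (15.6%), 0 at 8 times (2.06%), 0 with scaled libraries (2.85%) and 2 to 4 with single libraries left out, the 4 being without replicate 1 (12.9%). Of the 80 peaks within 50 kb, 57 were enriched in A375 and 4 in 1205Lu cells, and 38 differed between the lines, against 48.4% of all peaks tested. Of the 52, 24 differed, 18 with DESeq2 and 26 with all 6 libraries kept separate. With any single library but 1205Lu replicate 1 left out, 15 to 16 were higher in A375 and 7 to 9 in 1205Lu cells. Uncalled peaks near 0 changed sign with the setting. The IL6ST peak at 16.7 kb, at -0.00072, became 0.11 with total-count scaling and 0.014 with no low-count filter, and ranged from -0.037 to 1.482 with single libraries left out. The IL6ST start peak became 0.042, 0.052 and 0.060 with all 6 libraries, total-count scaling and the block (-0.27 to 0.24), the PIM1 start peak -0.069 with all 6 libraries, -0.13 with DESeq2 and -0.045 with the block (-0.44 to 0.23), and the SOCS2 start peak -0.17 with DESeq2 and -0.0115 with the block (-0.11 to 0.11). The IL6R peak at 48.6 kb ranged from -0.34 to 0.0014. The cause was not tested in each case. The low depth of the 1205Lu FRA1 libraries and the single IgG sample per line limit what the peak comparisons can show.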
